A study of Mus musculus with 54 samples.

Results

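The genes followed here encode scavenger receptors, efferocytosis receptors and the ligands of the latter: Msr1, Cd36, Scarb1, Mrc1, Stab1, Lrp1, Mertk, Axl, Gas6 and Pros1. They were chosen by symbol, by a rule that uses no measured value, although earlier results of these data were known when the set was drawn up. They are 10 of the 16632 genes in the count table. All 10 passed the filter on low counts and are among the 13169 genes tested, with 112 to 23420 counts per gene and sample.

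The cells were primary microglia of neonatal C57BL/6 mice, grown on a glial layer from pooled brains (2 per flask) in medium with L929 cell supernatant and then shaken off the astrocytes. The 4 kinds of sample share this origin and carry no transgene or deletion. Untreated_Ctrl cells received nothing, and aSyn_Donor cells received 1 µM Atto-488-labelled alpha-synuclein (aSyn), the protein that aggregates in Parkinson disease, for 14 h. For the co-cultures, Donors were loaded in the same way, Acceptors were stained with CellTracer Violet for 15 min, and both were mixed and then separated again by flow cytometry after 15, 30, 60, 150 or 300 min. The labels also name Donors and Acceptors at 0 min, and the protocol does not say how those cells, or the cells that were never mixed, were handled at the sorter. There were 54 libraries in 14 groups. Untreated_Ctrl had 6 libraries under 4 replicate numbers, and the libraries that share number 2 or number 4 were summed, which left 52 samples with 3 or 4 per group. Replicate 4 is missing from both 0 min groups, replicate 2 from Donors at 60 min and replicate 3 from Acceptors at 300 min. Nothing states that numbers stand for separate mice, so that p-values measure the spread between these samples.

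Library totals ran from 7807389 to 15537493 counts. The labels give replicate 1 passage 3, replicate 2 passage 1 and replicates 3 and 4 passage 2. The 13 libraries of replicate 4 carry a run of sequencing facility numbers of their own, apart from the other 41 libraries, and the ribosomal RNA gene Rn45s took 18.2% of their counts on average, against 6.60% in the others. All 8 microglia markers were detected in all 52 samples. Csf1r ran from 559 to 2434 CPM (the gene's count relative to the library's total count, which is scaled by the trimmed mean of M values, TMM), whereas the homeostatic markers Tmem119 (0.925 to 13.1 CPM), P2ry12 (1.48 to 12.3 CPM) and Sall1 (1.15 to 9.20 CPM) were low throughout. Of the 6 border macrophage markers, Cd163 was at 0 in 42 and Lyve1 in 29 of the 52 samples. Ms4a7 (309 to 909 CPM) and Pf4 (30.6 to 155 CPM) of the same list were detected in all 52. Fewer cells of a type and less RNA per cell cannot be told apart in such bulk samples.

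Scavenger receptors take up modified lipoproteins, polyanions and protein aggregates without opsonins. Efferocytosis, the engulfment of dying cells, relies among others on the TAM receptor tyrosine kinases (Tyro3, Axl and Mertk), which do not touch phosphatidylserine directly. The vitamin K-dependent proteins Gas6 and protein S (Pros1) bridge them to it: protein S engages Mertk and Tyro3, whereas Gas6 engages all TAM receptors and is the ligand of Axl. LRP1 is a large endocytic receptor of the LDL receptor family that binds apolipoprotein E, complexes of proteases and their inhibitors, and calreticulin on dying cells. In brain, microglia use Mertk and Axl to clear apoptotic neurons, while CD36, the class A receptor MSR1 and LRP1 have been studied as receptors for amyloidogenic proteins.

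The stretches upstream of the genes that moved together, or against each other, in the comparisons that follow are shown first. They are Lrp1, which was lower in aSyn-loaded cells, Mertk, which was higher, Gas6 and Pros1, which are the shared ligands, and Mrc1, which was far lower in loaded cells of replicate 4. RefSeq promoter entries on GRCm38.p6, the assembly also called mm10, were matched for 8 of the 10 genes (not Msr1 and Scarb1). Each sequence runs 5′ to 3′ on the strand of its gene over the 250 bases before the RefSeq start, except that Mrc1 stops at the base before its first GENCODE exon. The regions are chr10:127621149-127621398 (minus strand), chr2:128698665-128698914 (plus), chr8:13494536-13494785 (minus), chr16:62854057-62854306 (plus) and chr2:14229164-14229391 (plus). Capitals mark matches to the GC box GGGCGG and to the PU box GAGGAA, either as such or as the reverse complement.
Lrp1: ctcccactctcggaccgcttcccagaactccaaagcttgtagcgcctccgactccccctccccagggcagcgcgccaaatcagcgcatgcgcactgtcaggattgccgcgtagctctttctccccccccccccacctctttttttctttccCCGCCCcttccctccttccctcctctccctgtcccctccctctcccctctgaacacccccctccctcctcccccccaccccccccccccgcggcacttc
Mertk: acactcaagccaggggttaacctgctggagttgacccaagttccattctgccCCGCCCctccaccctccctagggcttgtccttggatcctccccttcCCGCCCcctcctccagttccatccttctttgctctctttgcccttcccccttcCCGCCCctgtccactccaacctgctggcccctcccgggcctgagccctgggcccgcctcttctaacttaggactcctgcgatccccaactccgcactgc
Gas6: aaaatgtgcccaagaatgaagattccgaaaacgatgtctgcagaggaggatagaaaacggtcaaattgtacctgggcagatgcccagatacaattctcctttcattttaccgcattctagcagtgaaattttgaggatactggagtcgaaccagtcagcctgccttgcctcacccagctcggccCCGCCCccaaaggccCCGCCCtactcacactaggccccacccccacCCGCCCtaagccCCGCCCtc
Pros1: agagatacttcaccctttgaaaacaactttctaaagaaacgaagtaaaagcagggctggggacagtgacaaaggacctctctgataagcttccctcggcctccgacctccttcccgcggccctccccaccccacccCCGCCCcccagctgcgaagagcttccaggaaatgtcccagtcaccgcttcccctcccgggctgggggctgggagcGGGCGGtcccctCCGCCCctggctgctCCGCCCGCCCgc
Mrc1: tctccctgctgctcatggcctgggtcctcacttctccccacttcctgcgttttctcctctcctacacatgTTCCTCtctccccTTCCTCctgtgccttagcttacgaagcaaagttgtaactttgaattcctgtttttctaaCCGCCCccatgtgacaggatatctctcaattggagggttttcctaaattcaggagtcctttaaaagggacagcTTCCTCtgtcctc

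The GC box matched 5 times in the Pros1 stretch, where the last pair of matches overlaps, 4 times in Gas6, 3 times in Mertk and once in Lrp1 and in Mrc1. At least 1 GC box lay in 32.7% of all 32851 mouse promoter windows of 250 bases. The PU box, the core bound by the myeloid factor PU.1, matched 3 times in Mrc1 and not in the other 4 stretches shown, against 23.3% of all windows with a match. Of the promoters not shown, Cd36 held 2 GC boxes, Axl 1 of each motif and Stab1 1 PU box. The motifs left, searched on both strands, had no match in any of the 8 windows: TGANTCA (AP-1, in 6.75% of all windows), CACGTG (an E-box, 6.02%) and TTGCNNAA (C/EBP, 9.56%). A match is a string of letters and not a binding site.

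The replicate number was the largest single source of differences for most of the genes. In log2 CPM it accounted for a median of 46.9% of a gene's variance over the 10 genes and the group for 30.5%, against medians of 33.9% and 24.95% over all tested genes. Axl lay at the extreme, with 85.2% for the replicate and 6.41% for the group. For Lrp1 (47.2%), Mertk (46.4%) and Gas6 (38.8%) the share of the group was larger than that of the replicate. There are 14 groups and 4 replicate numbers, and a factor with more levels takes up more variance by chance. The shares were not corrected for this, so those of group and replicate are not directly comparable. In the order of the 14 group means, neighbours lay closer than the larger of their SDs for all 13 neighbouring pairs of 9 genes. Gas6 had 1 exception, its highest group Untreated_Ctrl (681 CPM ± 78.3, SD, n = 4), which was followed by Acceptors at 60 min (561 CPM ± 112, SD, n = 4).

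**Figure D1:**
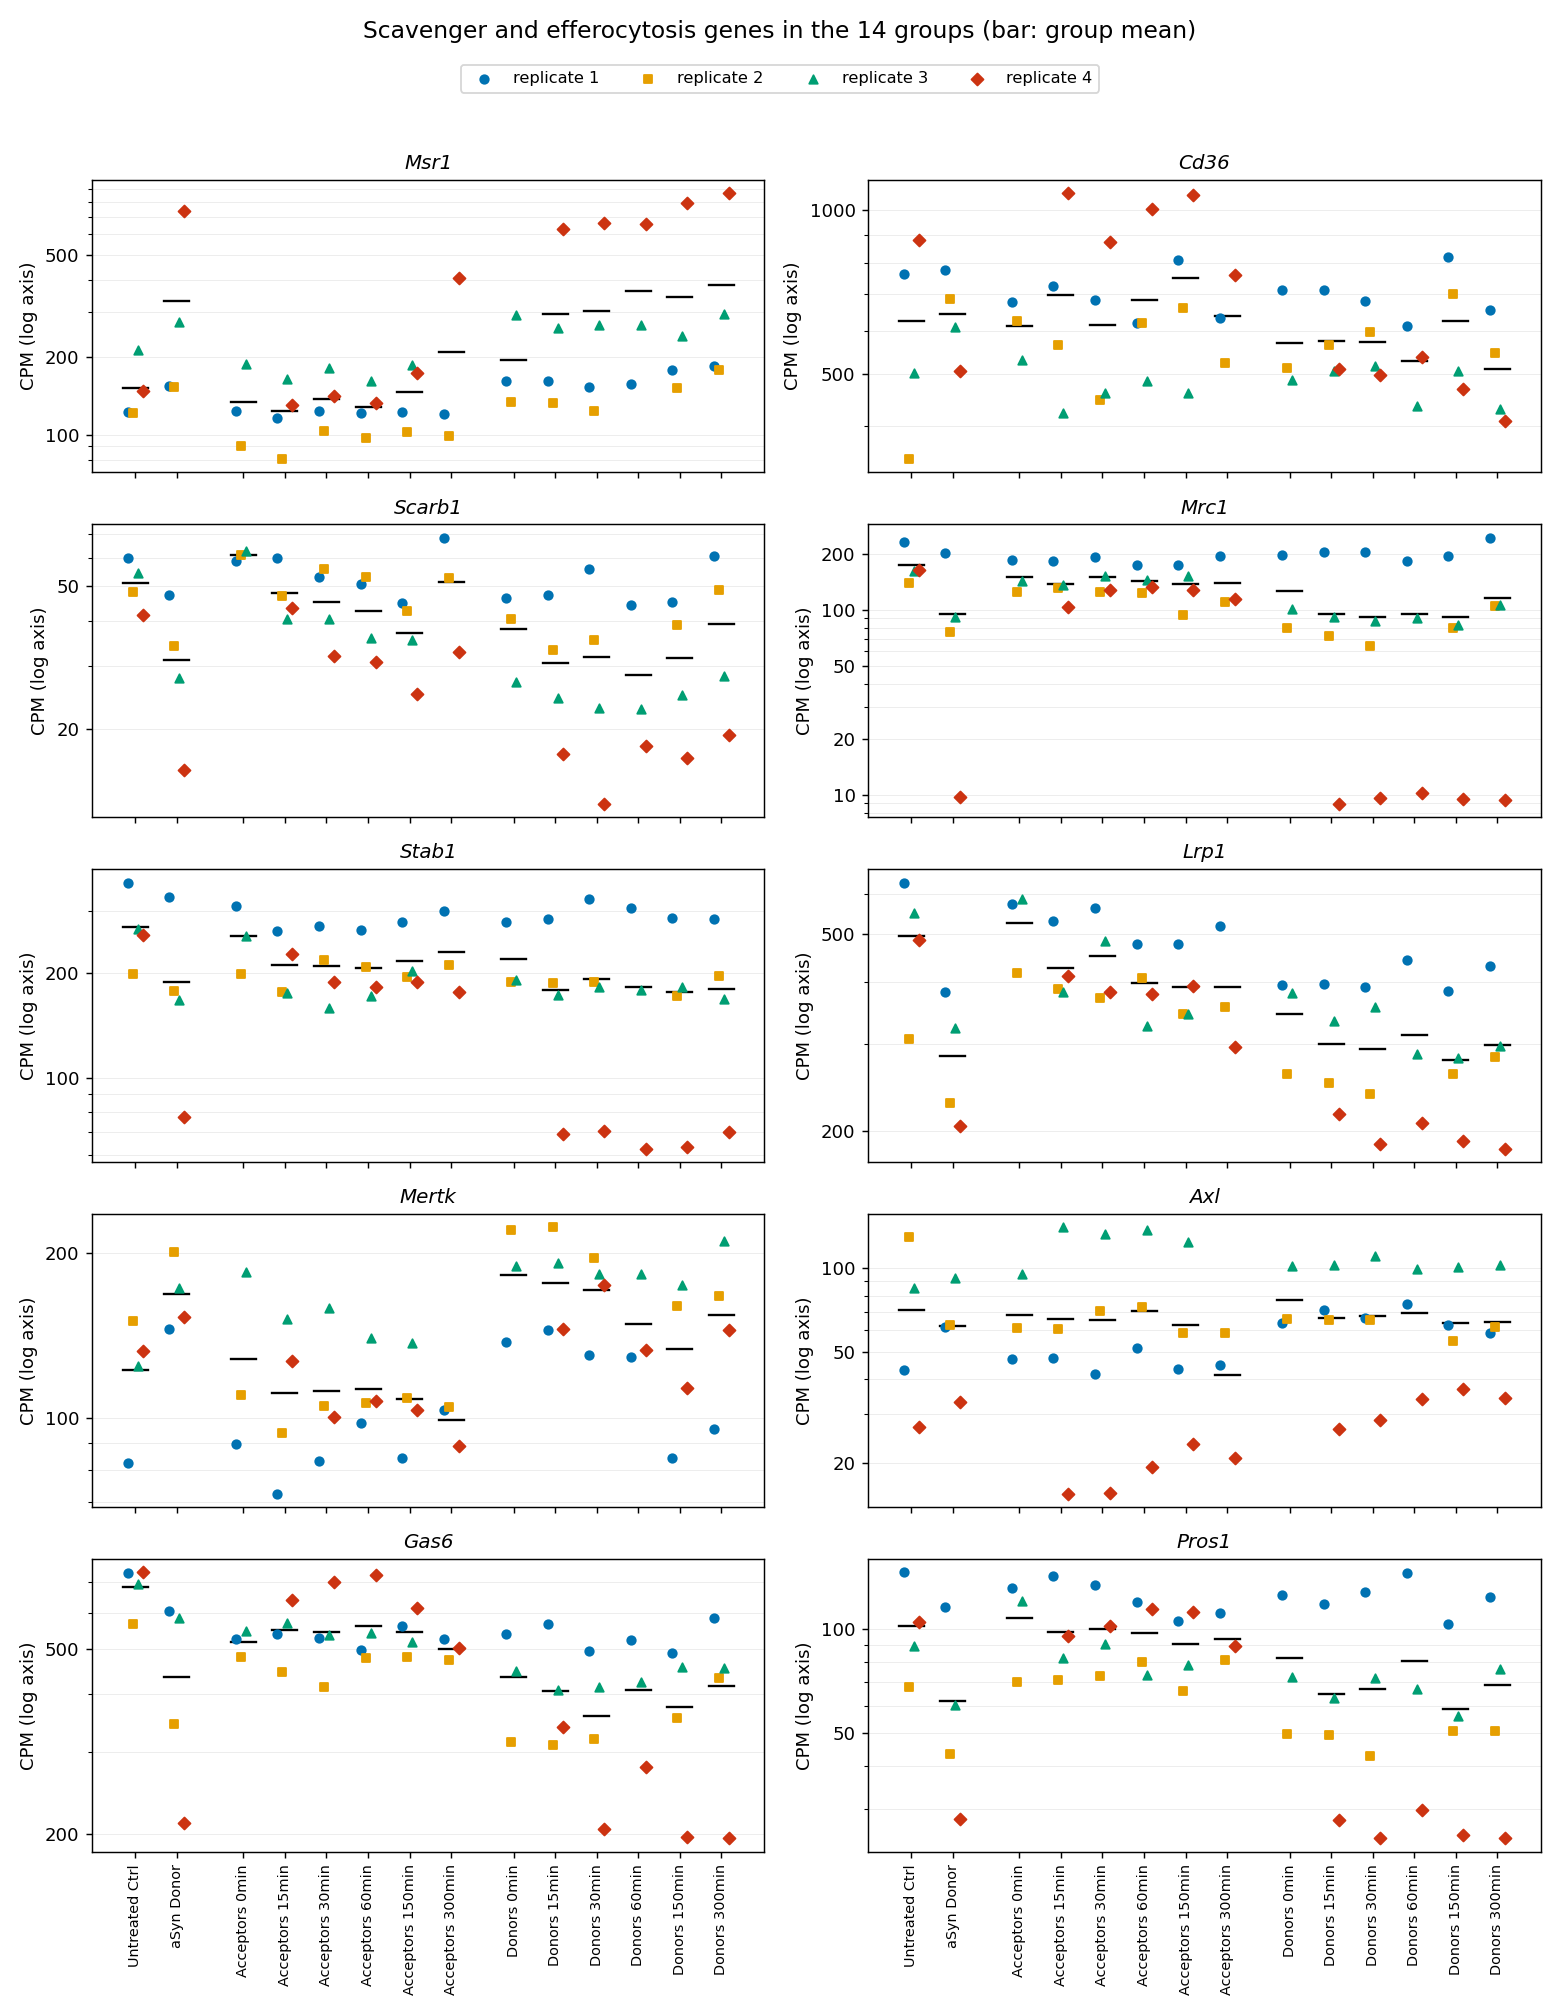
CPM (log axis) of the 10 genes in each of the 14 groups. Each point is 1 sample, coloured and shaped by its replicate number, and black bars are group means. Replicate 4 (red diamonds) leaves the others in aSyn_Donor and Donors, where Mrc1 is at 9.0 to 10.2 CPM, and Axl is highest in replicate 3 in all groups that hold it but Untreated_Ctrl.

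The comparison of aSyn_Donor with Untreated_Ctrl asks what 14 h with aSyn did. Lrp1, Scarb1, Gas6, Pros1, Mrc1 and Stab1 were lower in the loaded sample of all 4 same-numbered pairs, and Msr1 and Mertk were higher in all 4. Lrp1 was 1.35- to 2.37-fold lower and Mertk 1.15 to 1.76 times as high. In the fit without a replicate term, 0 of the 10 genes passed edgeR's quasi-likelihood test at an adjusted p under 0.05, against 2.5% of all genes, and 2 had an unadjusted p under 0.05 (Lrp1 and Gas6). DESeq2 on the same design called 1 of the 10, Lrp1 (adjusted p = 0.0465), against 4.61% of all genes. Samples with the same number deviated together, so the fit with the replicate number as a block is given beside it. It called 5 of the 10 genes, against 19.2% of all genes: Lrp1, Scarb1, Gas6 and Pros1 fell and Mertk rose. When each replicate in turn was left out of the blocked fit, Lrp1 and Scarb1 passed in all 4 fits. Gas6 and Pros1 did not pass without replicate 2 (adjusted p = 0.156 and 0.136) or replicate 3 (0.0763 and 0.113), and Mertk did not without replicate 1 (0.129) or replicate 3 (0.0537). The median log2 fold change of the 10 was -0.70 with the block and -0.59 without it, against -0.05 and -0.04 over all genes, and 7 of the 10 were negative in both fits. No gene had groups that did not overlap, against 8.1% of all genes.

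**Figure D2:**
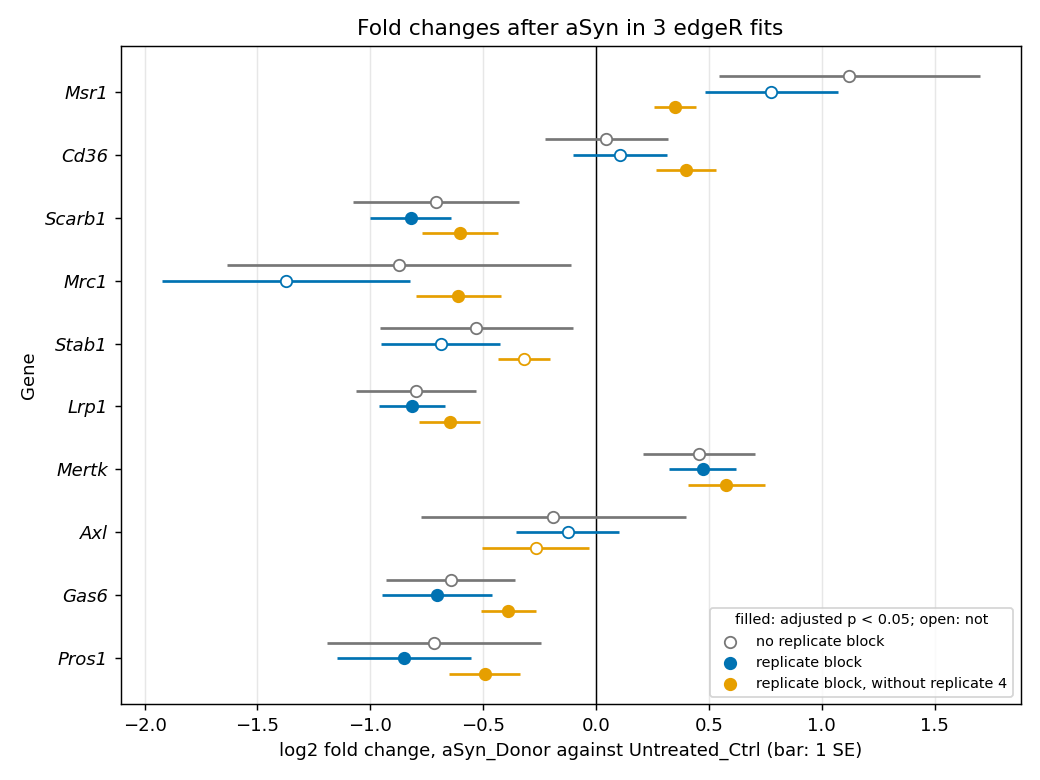
The log2 fold change of aSyn_Donor over Untreated_Ctrl (x axis, bars are 1 SE) for each gene under 3 edgeR fits: without a replicate block (grey), with it (blue) and with it but without replicate 4 (orange). Filled points have an adjusted p under 0.05. None of the grey points is filled, 5 of the blue ones are and 8 of the orange ones are.

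Lrp1 (chr10:127538161-127621148, minus strand, all coordinates mm10 with GENCODE M21) had 634, 307, 550 and 485 CPM in replicates 1 to 4 of Untreated_Ctrl and 381, 227.7, 323 and 205 CPM in aSyn_Donor. Each loaded sample was lower than its namesake, while the groups overlapped because untreated replicate 2 was low. Lrp1 fell by 0.82 on the log2 scale with the block (SE 0.147, adjusted p = 1.22e-04) and its value was -0.80 without it (SE 0.266, adjusted p = 0.101). Without replicate 4 the blocked value was -0.65 (adjusted p = 0.00143).

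Scarb1 (chr5:125277087-125341094, minus strand) encodes SR-BI, a receptor for HDL that also binds phosphatidylserine. Its values were 59.8, 48.1, 54.5 and 41.6 CPM in Untreated_Ctrl and 47.3, 34.2, 27.8 and 15.4 CPM in aSyn_Donor. All 4 ratios were below 1, from 1.27-fold lower in replicate 1 to 2.71-fold lower in replicate 4. Scarb1 fell by 0.82 on the log2 scale with the block (SE 0.179, adjusted p = 0.00109), against -0.71 without it (SE 0.369, adjusted p = 0.319).

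Both ligands of the TAM receptors were lower in all 4 pairs. Gas6 (chr8:13465374-13494490, minus strand) had 732, 567, 692 and 733 CPM in Untreated_Ctrl and 605, 345, 583 and 211 CPM in aSyn_Donor. Its change was 1.19- to 1.65-fold in replicates 1 to 3 and 3.48-fold in replicate 4. Gas6 fell by 0.70 on the log2 scale with the block (SE 0.242, adjusted p = 0.0353), against -0.64 without it (SE 0.287, adjusted p = 0.236). Pros1 (chr16:62854307-62929346, plus strand) had 146, 67.7, 89.5 and 105 CPM in Untreated_Ctrl and 116, 43.4, 60.1 and 28.1 CPM in aSyn_Donor. It was 1.26- to 1.56-fold lower in replicates 1 to 3 and 3.73-fold lower in replicate 4. Pros1 fell by 0.85 on the log2 scale with the block (SE 0.297, adjusted p = 0.0388), against -0.72 without it (SE 0.475, adjusted p = 0.455). Without replicate 4 the blocked values were -0.39 for Gas6 (adjusted p = 0.0311) and -0.49 for Pros1 (adjusted p = 0.0353), both more than 1.5 times smaller.

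The receptor Mertk (chr2:128698956-128802894, plus strand) moved the opposite way to its ligands. It had 82.7, 150, 124 and 132 CPM in Untreated_Ctrl and 146, 201, 173 and 153 CPM in aSyn_Donor, higher in each of the 4 pairs. Mertk rose by 0.47 on the log2 scale with the block (SE 0.148, adjusted p = 0.0212), against 0.46 without it (SE 0.249, adjusted p = 0.348). The related receptor Axl (chr7:25757273-25788705, minus strand), which in macrophages is induced by inflammatory stimuli, had 43.1, 130, 84.9 and 27.1 CPM in Untreated_Ctrl and 61.5, 62.8, 92.4 and 33.2 CPM in aSyn_Donor. It was higher in 3 pairs and lower in replicate 2, whose untreated sample was high in both of its libraries (117 and 131 CPM before TMM scaling), and passed in neither fit (adjusted p = 0.748 with the block). The third TAM receptor, Tyro3, stood at 0.218 to 1.71 CPM in Untreated_Ctrl and at 0.0711 to 0.636 CPM in aSyn_Donor, which are 5 to 29 and 1 to 8 counts.

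The class A scavenger receptor Msr1 (chr8:39581685-39642673, minus strand) had 123, 122, 214 and 147 CPM in Untreated_Ctrl and 154, 153, 274 and 737 CPM in aSyn_Donor. The ratio was 1.25, 1.26 and 1.28 in replicates 1 to 3 and 5.01 in replicate 4. Msr1 passed in neither fit of all samples (log2 fold change 1.12, SE 0.578, adjusted p = 0.312 without the block, and 0.78, SE 0.296, adjusted p = 0.0589 with it). Without replicate 4 it was called with the block, at a log2 fold change of 0.35 (SE 0.0947, adjusted p = 0.0128). The effect was smaller and its SE smaller still without that replicate.

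Mrc1 (chr2:14229392-14332057, plus strand), the mannose receptor CD206 of border macrophages and of alternatively activated macrophages, had 233.1, 139, 162 and 164 CPM in Untreated_Ctrl. In aSyn_Donor it had 203, 76.3, 91.0 and 9.8 CPM. It was 1.15-, 1.82- and 1.78-fold lower in replicates 1 to 3 and 16.7-fold lower in replicate 4, and its blocked log2 fold change of -1.38 (SE 0.550) did not pass (adjusted p = 0.0728). Without replicate 4 it was called at -0.61 (SE 0.189, adjusted p = 0.0297). Stab1 (chr14:31139013-31168641, minus strand), a multidomain receptor for acetylated LDL and for phosphatidylserine, had 363, 199, 267.998 and 256.9 CPM in Untreated_Ctrl and 329, 178, 168 and 77.3 CPM in aSyn_Donor. It was lower in all 4 pairs and passed neither with the block (-0.69, SE 0.265, adjusted p = 0.0620) nor without replicate 4 (-0.32, adjusted p = 0.0646).

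Cd36 (chr5:17781690-17888801, minus strand), the class B receptor for oxidised LDL, fatty acids and thrombospondin, went in no common direction. It had 764, 349, 502 and 883 CPM in Untreated_Ctrl and 777, 686, 608 and 507 CPM in aSyn_Donor, a ratio of 1.97 in replicate 2 and 1.74-fold lower in replicate 4. Its adjusted p was 0.767 with the block. Without replicate 4 it was called at 0.40 (SE 0.131, adjusted p = 0.0417), with a ratio of 1.02 in replicate 1 and 1.21 in replicate 3. The blocked fit without replicate 4, which was added after the data were seen, thus called 8 of the 10 genes, against 12.4% of all genes. Stab1 and Axl were those that did not pass.

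Exons of Stab1 overlap those of Nt5dc2 on the opposite strand, and exons of Gas6 those of Tmem255b. The kit keeps strand, but the sources used here do not state whether counting used it. Markers of other cell types differed along with this comparison. The summed level of 8 astrocyte markers, a cell type that also expresses Lrp1, Mertk, Axl, Gas6 and Pros1, was 11.3, 18.8, 77.6 and 139 CPM in replicates 1 to 4 of Untreated_Ctrl and 13.9, 11.2, 16.7 and 29.3 CPM in aSyn_Donor. In the blocked fit 5 of these 8 fell (Aldoc, Aqp4, Gfap, Slc1a2 and Slc1a3), and 0 did without the block. Gfap was at 0 in 18 and Aqp4 in 27 of the 52 samples. The summed oligodendrocyte markers were 263.9, 275, 560 and 152 CPM in Untreated_Ctrl and 207, 188, 310 and 128 CPM in aSyn_Donor, lower in all 4 pairs, as were the sums of the neuron and microglia markers. The border macrophage markers summed to 414, 932, 694 and 567 CPM in Untreated_Ctrl and 716, 956, 714 and 744 CPM in aSyn_Donor, higher in all 4 pairs. Most of that sum is the single gene Ms4a7, with a median of 625 CPM over the 52 samples. Pf4 had a median of 76.1 CPM and the rest of the list medians of at most 2.93 CPM. The part of these cell types in the results was not tested.

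Donors and Acceptors were compared at the same time, which from 15 min on sets loaded against unloaded cells of a co-culture, while the handling at 0 min is not described. Donors held less Lrp1 and more Msr1 than Acceptors in 21 of 21 same-numbered pairs, and Scarb1 was lower and Mertk higher in 19 of 21 each. Without the block, edgeR called 0 of 60 results (10 genes at 6 times), and 8 had an unadjusted p under 0.05. The share of all genes called was 0.251% at 0 min, 0.888% at 15 min, 0.805% at 30 min, 0.418% at 60 min, 0.167% at 150 min and 0.0304% at 300 min, and DESeq2 also called 0 of the 60, with 10 under an unadjusted p of 0.05. With the block 10 of the 60 were called. They were 2 of 10 genes at 0 min (Lrp1 and Scarb1, against 4.28% of all genes) and 4 at 15 min (Lrp1, Scarb1, Mertk and Msr1, against 9.57%). There were 3 at 30 min (Lrp1, Scarb1 and Mertk, against 10.8%), 0 at 60 min (against 6.7%), 1 at 150 min (Lrp1, against 5.19%) and 0 at 300 min (against 1.38%). Of these 10, Lrp1 and Mertk at 30 min passed in each of the 4 blocked fits that leave out a replicate, and each of the other 8 missed the threshold in at least 1 of them.

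**Figure D3:**
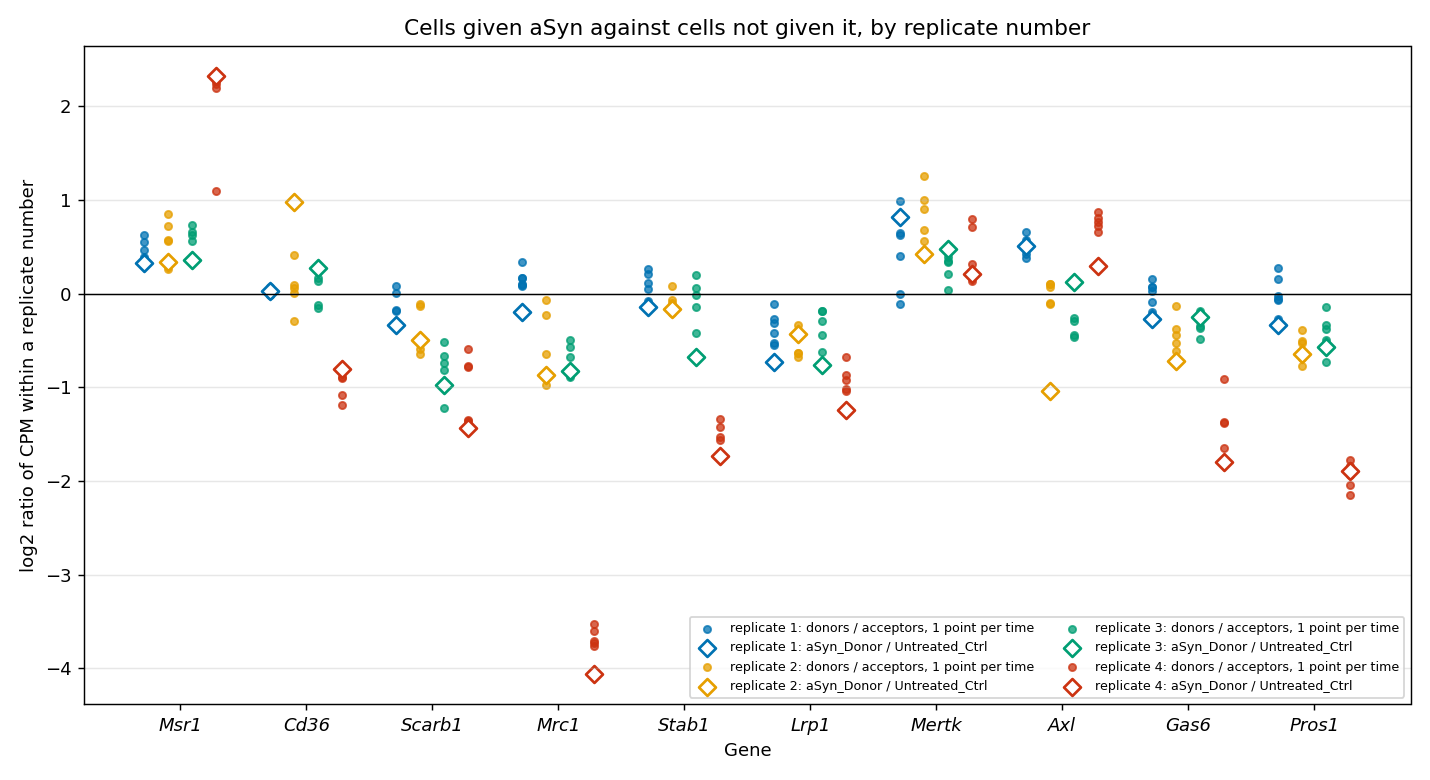
The log2 ratio of CPM between samples with the same replicate number. Filled circles are Donors over Acceptors at 1 co-culture time each, and open diamonds are aSyn_Donor over Untreated_Ctrl. Every Lrp1 ratio lies below 0 and every Msr1 ratio above it, and the replicate 4 points (red) of Mrc1 lie between -4.07 and -3.53.

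Lrp1 was 1.08- to 1.46-fold lower in Donors in replicate 1, 1.26- to 1.59-fold in replicate 2, 1.14- to 1.54-fold in replicate 3 and 1.60- to 2.06-fold in replicate 4. At 0 min the groups did not overlap, with 394, 261.5 and 380 CPM in Donors and 575, 417 and 586 CPM in Acceptors of replicates 1 to 3, as held for 16.8% of all genes. At 30 min, where its adjusted p was smallest, Lrp1 fell by 0.64 on the log2 scale with the block (SE 0.147, adjusted p = 0.00333). Markers of other cell types differed between Donors and Acceptors too. The summed astrocyte markers were lower in Donors in all 5 pairs of replicate 3 and all 5 of replicate 4, and over all times they were 10.6 to 35.3 against 30.6 to 42.3 CPM in replicate 3 and 9.83 to 25.1 against 23.1 to 38.0 CPM in replicate 4. They were higher in Donors in all 6 pairs of replicate 1 (13.1 to 20.2 against 7.59 to 13.8 CPM). The summed border macrophage markers, mostly Ms4a7, were higher in Donors in 19 of 21 pairs, at 662 to 850 against 373 to 443 CPM in replicate 1 and 836 to 964 against 666 to 749 CPM in replicate 2. Their part in the results on Lrp1 and the genes that follow was not tested.

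Both pairs in which Scarb1 was higher in Donors were of replicate 1. At 0 min its groups did not overlap either, with 46.4, 40.7 and 27.0 CPM in Donors and 58.8, 61.3 and 62.9 CPM in Acceptors. With the block it fell by 0.75 on the log2 scale at 0 min (SE 0.206, adjusted p = 0.0270) and by 0.75 at 15 min (SE 0.180, adjusted p = 0.00565). At 150 and 300 min the values were -0.30 (adjusted p = 0.359) and -0.39 (adjusted p = 0.315).

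Both pairs in which Mertk was lower in Donors were of replicate 1. At 15 min it had 144, 223, 192 and 145 CPM in Donors and 72.6, 93.6, 151 and 127 CPM in Acceptors, and it rose by 0.68 on the log2 scale with the block (SE 0.149, adjusted p = 0.00223). The largest ratio of any Mertk pair was 2.38, in replicate 2 at this time. At 150 min the values were 84.2, 160, 175 and 113 CPM in Donors and 84.4, 108, 137 and 103 CPM in Acceptors, and the difference of 0.27 (SE 0.148) did not pass (adjusted p = 0.297).

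For Msr1, replicates 1 to 3 gave ratios of 1.20 to 1.81 and replicate 4 gave 2.14 to 4.95. With the block and all samples Msr1 passed at 15 min only (0.98, SE 0.298, adjusted p = 0.0308), with adjusted p-values of 0.0548 to 0.414 at the other times. In the blocked fit without replicate 4 it passed at all 6 times, with log2 fold changes from 0.39 at 30 min (adjusted p = 0.00754) to 0.71 at 300 min (adjusted p = 4.74e-04). Acceptors at 300 min are replicates 1 and 2 only in that fit, and Donors at 60 min replicates 1 and 3 only. That fit called 12 of 60 results: Msr1 at 6 times, Mertk at 0, 15 and 30 min, Lrp1 at 0 and 30 min and Scarb1 at 0 min. The share of all genes called in it was 11.1%, 6.66%, 8.58%, 4.5%, 3.26% and 1.17% from 0 to 300 min.

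The other members did not pass at any time. Pros1 was lower in Donors in 19 and Gas6 in 17 of 21 pairs, and all 6 exceptions came from replicate 1. Mrc1 was lower in 15 pairs and higher in the 6 of replicate 1, where its ratio was 1.06 to 1.26. Stab1 was lower in 14 pairs and Axl higher in 15, among them all 6 of replicate 1 and all 5 of replicate 4. Cd36 was higher in 10 pairs and lower in 11, among them all 5 of replicate 4, at 1.76- to 2.28-fold lower. The median log2 fold change of the 10 genes with the block ran from -0.46 to -0.25 over the 6 times, against -0.04 to -0.01 for all genes.

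In replicate 4 loaded and unloaded cells lay more widely apart than in the other replicates for Msr1, Mrc1, Stab1, Pros1, Gas6 and Lrp1. For Lrp1 its log2 ratio was -1.24 in aSyn_Donor over Untreated_Ctrl, against -0.77 to -0.43 in the others. For Mertk, in contrast, the replicate 4 ratio in aSyn_Donor over Untreated_Ctrl was the smallest of the 4. Donors of replicate 4 had 628 to 871 CPM of Msr1 and 9.0 to 10.2 CPM of Mrc1 over 5 times, near the 737 and 9.8 CPM of its aSyn_Donor sample. Its Acceptors had 131 to 174 CPM of Msr1 from 15 to 150 min and 407 CPM at 300 min, with 104 to 133 CPM of Mrc1. Mrc1 was thus 11.6- to 13.6-fold lower in its Donors than in its Acceptors, Pros1 3.43- to 4.44-fold, Stab1 2.52- to 3.28-fold and Gas6 1.88- to 3.42-fold. Other genes of the cell moved with it. The summed microglia markers of replicate 4 were 1513 to 1774 CPM in Donors against 2399 to 2856 CPM in Acceptors, Cx3cr1 was 18.5 to 33.4 against 92.8 to 141 CPM and Csf1r 559 to 692 against 958 to 1356 CPM. What sets replicate 4 apart was not tested.

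**Figure D4:**
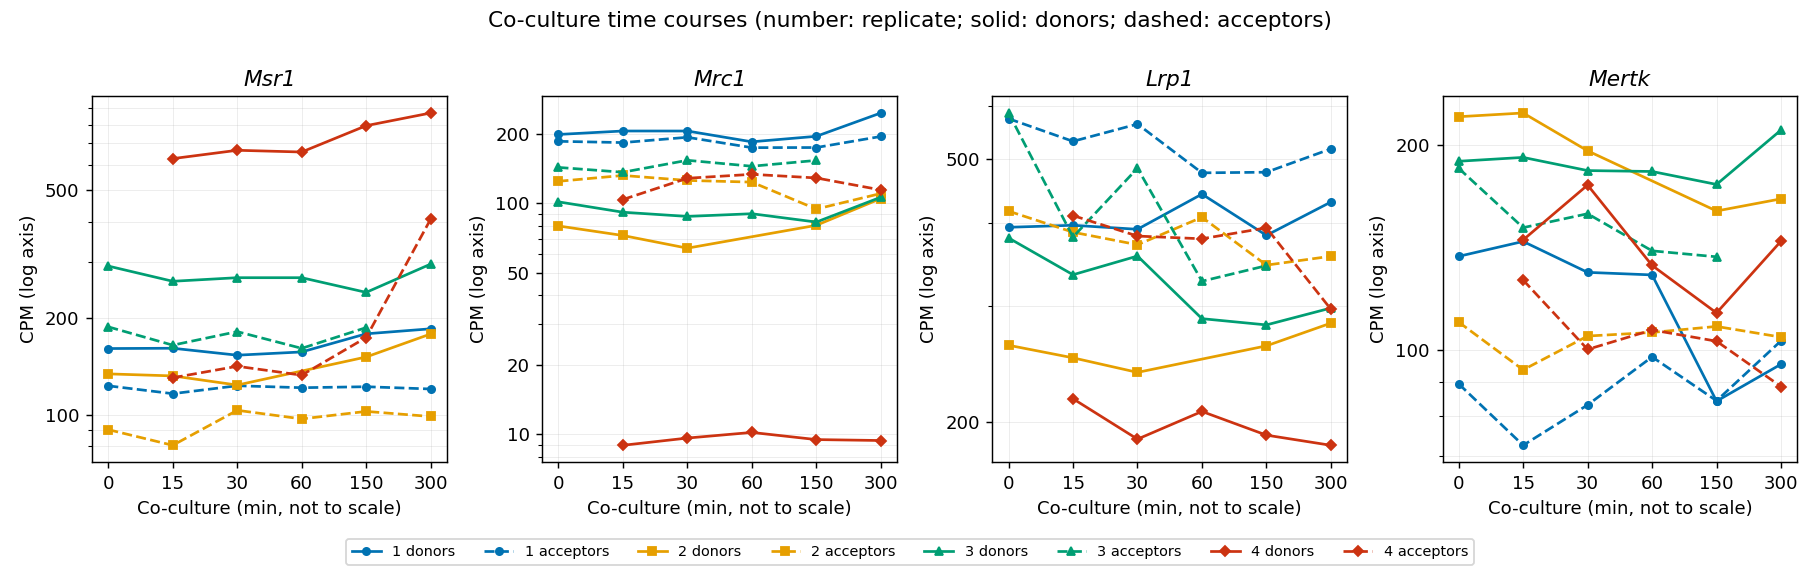
CPM (log axis) of Msr1, Mrc1, Lrp1 and Mertk against co-culture time, with times evenly spaced. Solid lines are Donors, dashed lines Acceptors, and colours and symbols are replicate numbers. Donor and acceptor lines of the same colour do not cross for Lrp1 and Msr1, and Msr1 of replicate 4 Acceptors goes from 174 to 407 CPM between 150 and 300 min.

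Acceptors against Untreated_Ctrl compare unloaded cells of the co-culture series with cells that received nothing. Acceptors were also stained with CellTracer Violet and, from 15 min on, sorted. Whether Untreated_Ctrl cells were sorted is not described. Effects of staining, sorting and co-culture cannot be told apart in this comparison. Of 60 results 0 were called without the block (0 also had an unadjusted p under 0.05) and 0 by DESeq2. The background was 0.0% of all genes at 0, 15 and 300 min, 0.114% at 30 min, 0.0683% at 60 min and 0.137% at 150 min. With the block 0 were called as well, 3 had an unadjusted p under 0.05, and the background was 0.995%, 2.25%, 3.6%, 4.0%, 4.78% and 0.623% from 0 to 300 min. Gas6 and Mrc1 were lower in Acceptors than in the same-numbered Untreated_Ctrl in 22 of 22 pairs, though each replicate's pairs share 1 untreated sample. These pairs include all 3 at 0 min. The summed oligodendrocyte markers were also lower in Acceptors in 22 of 22 pairs (263.9 against 136 to 160 CPM in replicate 1, 275 against 157 to 185, 560 against 197 to 236.4 and 152 against 89.96 to 126 CPM in replicates 2 to 4). Astrocyte sums were lower in 18 of 22 pairs, at 77.6 against 30.6 to 42.3 CPM in replicate 3 and 139 against 23.1 to 38.0 CPM in replicate 4, and the part of either in these results was not tested. Gas6 groups did not overlap at 0 min (481 to 547 against 567 to 733 CPM), as held for 6.17% of all genes, and at 300 min (475 to 527 CPM), as held for 5.26%. Without replicate 4 the blocked fit called 3 of 60: Stab1 (-0.43, adjusted p = 0.0441) and Msr1 (-0.35, adjusted p = 0.0471) were lower at 15 min, against 1.93% of all genes, and Gas6 at 30 min (-0.42, adjusted p = 0.0373), against 4.56%. At the other times that fit called 2.87% (0 min), 2.8% (60 min), 3.19% (150 min) and 0.0765% (300 min) of all genes. Untreated replicate 2 stood apart from Acceptors of its number, with 130 CPM of Axl against 58.9 to 72.8 CPM and 349 CPM of Cd36 against 447 to 661 CPM.

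Donors at each time against aSyn_Donor cells, which were loaded but not co-cultured, gave 0 of 60 calls in either edgeR fit and by DESeq2. An unadjusted p under 0.05 was reached by 0 of them without the block and by 1 with it. The background was 0.0% of all genes at the first 5 times and 0.0304% at 300 min without the block, and 0.0% and 0.304% with it. The blocked fit without replicate 4 also called 0 of 60, against 0.0153%, 0.00765%, 0.00765%, 0.107%, 0.0153% and 0.887% of all genes from 0 to 300 min, with 6 of the 60 under an unadjusted p of 0.05. These comparisons share the 4 aSyn_Donor samples. Same-numbered log2 ratios of Lrp1 ran from -0.20 to 0.31, with 16 of 22 above 0, and those of Msr1 from -0.31 to 0.27. The most one-sided members were Cd36 (median log2 ratio -0.24) and Gas6 (-0.14), each lower in 18 of 22 pairs, and Axl (0.07), higher in 17.

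Over the 6 co-culture times no member was called as changed in Donors (0 of 10, against 0.0607% of all genes), in Acceptors (0 of 10, against 0.00759%) or in the difference between them (0 of 10, against 0.0%). With the block the counts were 0 of 10 each, against 0.577%, 0.137% and 0.0456% of all genes. Few genes of any kind were called over time, so these counts do not show that the members stayed the same. In the blocked fit of all samples 1 result had an unadjusted p under 0.05, Mertk in Donors (edgeR's quasi-likelihood test, adjusted p = 0.592). Its Donor values were lower at 150 than at 15 min in all 4 replicates. The Donor means were 182, 176, 171, 148, 133 and 154 CPM from 0 to 300 min, so the last was higher again.

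Across the 52 samples, after each replicate's mean was taken out, Mrc1, Stab1, Gas6, Pros1, Lrp1 and Scarb1 varied together. Pearson's r of log2 CPM among these 6 ran from 0.75 to 0.95, and Msr1 was negatively related to each (r = -0.88 to -0.72). These samples share groups, cultures and batches of libraries. In the 40 samples of replicates 1 to 3 the same pairs of genes ran from 0.43 (Mrc1 with Stab1) to 0.82 (Lrp1 with Pros1). Lrp1 and Scarb1 kept r = 0.80 there, from 0.85 with all samples, and Msr1 with Mertk went from 0.45 to 0.68. Mertk was negatively related to its ligands in both sets, at -0.46 for Gas6 and -0.47 for Pros1 with all samples and -0.57 and -0.54 without replicate 4. Cd36 and Axl had r = -0.67 with all samples and -0.55 without replicate 4.

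**Figure D5:**
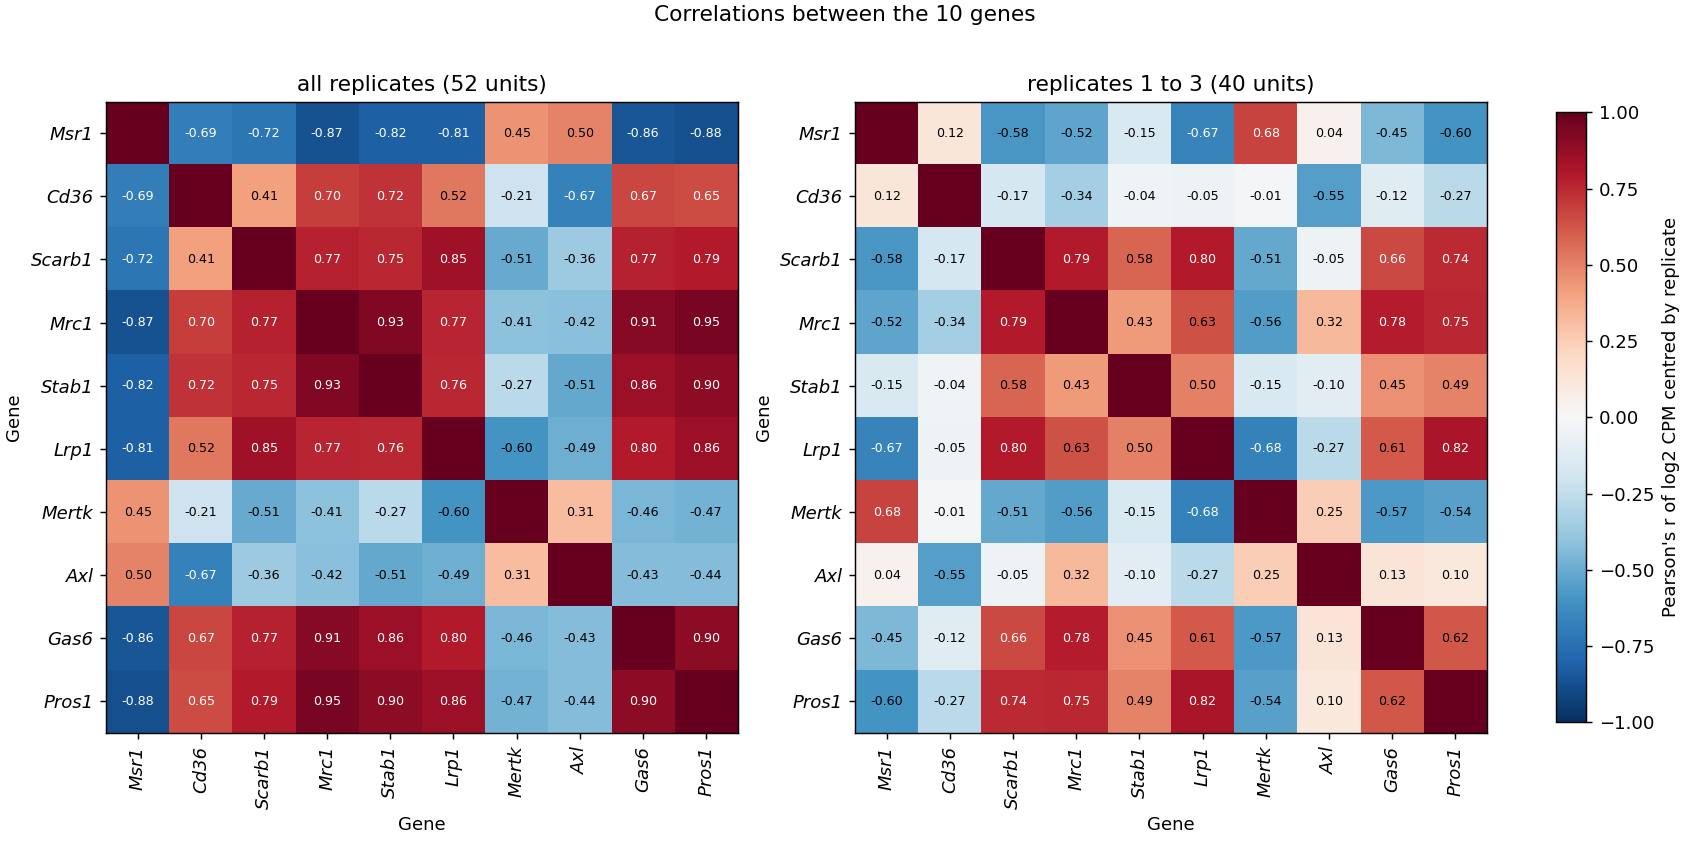
Pearson's r of log2 CPM between each pair of the 10 genes, centred by replicate number, over all 52 samples (left) and over the 40 samples of replicates 1 to 3 (right). Red is positive and blue negative. The block of 6 genes from Scarb1 to Lrp1 with Gas6 and Pros1 is red in both panels, and the Msr1 row is blue against them, at -0.88 to -0.72 on the left and -0.67 to -0.15 on the right.

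By the same measure over all tested genes, the genes most like each member were the following. For Msr1 they were Acsl5 (r = 0.96), Rac2 (0.95) and Hcls1 (0.94), and for Lrp1 Arap3 (0.92), Tox2 (0.92) and Rasgrp3 (0.91). For Scarb1 they were Arhgef7 (0.90), Efr3b (0.90) and Tox2 (0.89), so Tox2 stood on both lists. Mrc1 was most like Timp2 (0.98), Hexa (0.98) and Aplp2 (0.98), and Pros1 most like Hexa (0.96), Aplp2 (0.96) and Gsn (0.95). Stab1 was most like Timp2 (0.94), Sort1 (0.93) and Aldh2 (0.93), which without replicate 4 were at 0.44, 0.56 and 0.38. Gas6 was most like Slco2b1 (0.94), Pcp4l1 (0.92) and Cadm1 (0.92), Mertk most like Tnfaip2 (0.80), Gramd1b (0.79) and Acp5 (0.79), and Axl most like Epsti1 (0.80), Fcgr4 (0.79) and Stard3 (0.78). Cd36 was most like Lipa (0.83), Nnt (0.82) and Atp13a3 (0.82), which were at 0.33, 0.49 and 0.48 without replicate 4. For Lrp1, Arap3 was at 0.94 without replicate 4.

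Related genes outside the 10 were read from 4 lists, and their counts stand beside the 2.5% of all genes called without the block and the 19.2% called with it. Of 13 other scavenger receptors 10 were tested. In aSyn_Donor against Untreated_Ctrl 1 rose without the block, Cxcl16, a membrane chemokine that also binds oxidised LDL (0.82, SE 0.215, adjusted p = 0.0261). With the block 3 of the 10 were called, against 19.2% of all genes: Cxcl16 and Marco rose and Cd68 fell. Marco, a class A receptor like Msr1, had 2.62, 0.0436, 19.1 and 1.70 CPM in Untreated_Ctrl and 7.96, 7.18, 146 and 114 CPM in aSyn_Donor, where the untreated value of replicate 2 is 1 count, and rose by 3.98 on the log2 scale (SE 0.518, adjusted p = 6.66e-07), while without the block its adjusted p was 0.254. In co-culture it was 10.5 to 14.8 CPM in Donors and 1.40 to 4.38 CPM in Acceptors of replicate 1, and 184 to 268.8 against 33.9 to 57.3 CPM in replicate 3. With the block Marco was called higher in Donors at all 6 times.

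Of 8 C-type lectin relatives of the mannose receptor 6 were tested. Clec4n (dectin-2) had 24.1, 28.3, 27.9 and 13.1 CPM in Untreated_Ctrl and 75.7, 112, 136 and 237 CPM in aSyn_Donor, with no overlap. It rose by 2.59 on the log2 scale without the block (SE 0.437, adjusted p = 7.64e-04), and was also called higher in Donors than in Acceptors at 15, 30, 60 and 150 min without it (2.00 to 2.17). With the block 3 of the 6 were called, against 19.2% of all genes. Clec4a2 rose too (1.03, SE 0.203, adjusted p = 3.46e-04) and Clec10a fell (-2.41, SE 0.765, adjusted p = 0.0228). The C-type lectin Clec10a was at 1.2 to 22.5 CPM in Untreated_Ctrl, with the 22.5 CPM in replicate 2, and at 0 to 2.4 CPM in aSyn_Donor. Its group means were as low in the unloaded Acceptors (1.21 to 2.87 CPM) as in Donors (1.37 to 2.96 CPM).

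Of 15 genes of the LDL receptor family and partners of LRP1 13 were tested. Lrpap1, the chaperone that keeps newly made LRP1 from binding ligands in the secretory pathway, had 68.5, 75.8, 73.4 and 72.6 CPM in Untreated_Ctrl and 91.4, 88.1, 93.0 and 92.0 CPM in aSyn_Donor, with no overlap. The unloaded Acceptors had similar group means, 88.7 to 94.0 CPM, and Donors had 91.4 to 97.8 CPM. The difference thus set Untreated_Ctrl apart and did not separate loaded from unloaded cells. Lrpap1 rose by 0.33 on the log2 scale without the block (SE 0.0945, adjusted p = 0.0489), and with it Lrp10 (0.40, adjusted p = 0.0409) and Calr (0.38, adjusted p = 0.0273), which encodes calreticulin, rose too. These 3 of 13 are a share near the 19.2% of all genes called in that fit. The median of this list was 0.14 without the block, against -0.80 for Lrp1. Sorl1, a sorting receptor of the family, was called higher in Donors than in Acceptors without the block at 0 min (1.15, SE 0.257, adjusted p = 0.0302) and 30 min (0.93, SE 0.222, adjusted p = 0.0256).

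Of 31 other efferocytosis genes 28 were tested. Without the block 1 rose with aSyn, Havcr2 (TIM-3, which binds phosphatidylserine), at 1.11 (SE 0.303, adjusted p = 0.0359). With the block 3 rose (Thbs1, Havcr2 and Abcg1) and 3 fell (Rac1, Elmo1 and Dock1), and these 6 of 28 are a share near the 19.2% of all genes called in that fit. The bridging protein Thbs1 had 1.1, 3.6, 0.5 and 1.5 CPM in Untreated_Ctrl and 8.2, 8.7, 14.4 and 115 CPM in aSyn_Donor. Dock1 and Elmo1 form an exchange factor for the GTPase Rac1. With the block the genes Dock1, Elmo1 and Rac1 fell by 1.09 (adjusted p = 0.0158), 0.57 (adjusted p = 0.0167) and 0.22 (adjusted p = 0.00957) on the log2 scale, lower in all 4 pairs each. Dock2 of the same list was not among the 6 called. In the unloaded Acceptors, group means of Dock1 were 10.6 to 12.8 CPM, against 15.8 CPM in Untreated_Ctrl. Those of Rac1 were 474 to 495 against 521 CPM, and those of Elmo1 31.7 to 42.9 against 40.5 CPM. The median of the list was -0.05 with the block, the same as that of all genes.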

How the data were processed

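Libraries were made with a 3′ kit (QuantSeq FWD, 50-base single reads), so values were not divided by gene length and levels are not compared between genes; this comes from the labels' protocols. Raw counts per gene symbol are what the authors deposited; the submitters' processing notes name STAR, Partek, DESeq2 and mm10, without versions. The deposited normalized table was not used. Counts of the untreated libraries that share a number were summed. edgeR 4.0.16 (R 4.3.3; TMM, filterByExpr by group at a minimum count of 10, quasi-likelihood test, Benjamini-Hochberg adjustment over 13169 genes, threshold 0.05) fitted all 14 groups and 52 samples at once; the code was tested on simulated data. CPM use TMM factors; correlations use log2 CPM with a prior count of 2. Replicate numbers were taken to pair samples, because the deviations of same-numbered samples from their group means correlated in every pair of 19 comparisons (r from 0.199, means 0.339 to 0.593). Alternatives were a replicate block, RLE scaling, no filter, DESeq2 1.42.0, omission of each replicate, unsummed libraries and fits of the compared groups only. The 10 genes, the 4 gene lists and the markers were chosen with earlier results of these data known. Named genes are the 10 members and, per list, at most 4 called genes with the smallest p. Abcg1, Elmo1, Dock2 and Tyro3 fall outside that rule and were chosen after their values were seen. Promoter sequences are from RefSeq, gene positions from GENCODE M21.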

Additional observations from a re-analysis of the deposited data

Results flagged for a closer look

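Of 100 sets of values (10 genes in the groups of 4), 3 held a sample farther from the rest than Dixon's 95% limit allows, and chance marks about 1 in 20. Msr1 in Donors of replicate 4 was 795 CPM at 150 min, with the other replicates at 152 to 240.8 CPM, and 871 CPM at 300 min, with the others at 179 to 295 CPM. Stab1 in Acceptors of replicate 1 at 150 min was 279 CPM, with the others at 189 to 202 CPM.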

How the results depend on the processing

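The fit with the replicate number as a block moved the number of genes called from 0 to 5 of 10 in aSyn_Donor against Untreated_Ctrl and from 0 to 10 of 60 in Donors against Acceptors. DESeq2 moved the first to 1. In blocked fits that leave out 1 replicate, which were added after the data were seen, the first count was 4, 3, 2 and 8 without replicates 1, 2, 3 and 4 and the second 6, 3, 7 and 12. That of Acceptors against Untreated_Ctrl was 3 without replicate 4 and 0 without any other. The block changed no count for Donors against aSyn_Donor or for change over time. RLE scaling, no filter, unsummed libraries and unblocked fits without 1 replicate left all 7 counts at 0, and fits of the compared groups only, which were not made for change over time, left the other 4 at 0. No value changed its sign among those called. The count of all genes called after aSyn went from 329 to 2524 with the block and to 607 with DESeq2. The smallest count of any of the 10 genes in a sample was 112, whereas Marco, Clec10a, Thbs1 and Tyro3 rest on a few counts or 0 in some samples, which limits their precision.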
